A study of Mus musculus with 25 samples.

Results

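The genes described here are the well-expressed members of the mouse Zfp series, genes whose symbol is Zfp followed by a number, most of which encode zinc finger proteins. Members were chosen by their level: a gene was taken when its spliced reads, the reads that overlapped its listed introns without being counted inside them, averaged at least 100 over the 25 libraries. This kept 72 of 321 Zfp genes, out of 17591 genes in all, with 521 listed introns. The rule used the mean level over every library and no comparison between groups. The lowest members were Zfp825, Zfp810 and Zfp809, with means of 100.08, 101.12 and 107.76 spliced reads, and the nearest genes left out were Zfp219, Zfp958 and Zfp407, with 99.68, 99.28 and 98.04.

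The libraries came from 4 transplantable mouse tumor models of triple-negative breast cancer, grown orthotopically in female mice aged 4 to 5 weeks at transplant. Mice received H3B-8800, an oral small molecule that binds the splicing factor SF3B1, or vehicle each day before tumors were taken. PyMT-M tumors (4 H3B-8800 and 4 vehicle libraries) and AT3 tumors (2 and 3) grew in C57BL/6 mice, and 2208L tumors (3 and 3) and T11 tumors (3 and 3) grew in Balb/c mice. By the labels, PyMT-M and 2208L were responders and the other two were nonresponders. Each library is polyA-selected, strand-specific RNA of a whole tumor, so tumor and host cells were measured together, and each model is a transplanted tumor line. In T11 the intron reads ran against the labels: all introns together held 10.5 ± 1.34% of reads under the label H3B-8800 and 14.4 ± 3.38% under the label vehicle (SD, n = 3 each), whereas the H3B-8800 mean was the higher one in the other 3 models. T11 groups are therefore named by label throughout, and no direction in T11 is read as an effect of the drug.

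C2H2 zinc finger proteins carry repeated small folds in which a pair of cysteines and a pair of histidines hold a zinc ion, and rows of such fingers read DNA or RNA sequence. A large subfamily joins them to a KRAB domain, which binds the corepressor TRIM28 and through it brings SETDB1 and HP1 proteins to silence the bound locus, transposable elements among them. SF3B1 is the part of the U2 snRNP that clamps the branch point of an intron, upstream of the pyrimidine-rich stretch and the AG at its end; when splicing fails there, the intron can stay in the transcript.

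In the coding sequences of GENCODE M21, 17 of the 72 members held a KRAB box by a fixed residue pattern, among them Zfp68, Zfp777, Zfp282, Zfp809, Zfp948 and Zfp810. A fixed pattern can miss a box that departs from it, so the other members may include KRAB genes. The number of C2H2 fingers had a median of 7 and reached 37 in Zfp142. The pattern found no finger in Zfp36, whose fingers are of the CCCH type, or in Zfp330. For 19 members the files list only part of the transcript's introns, so introns are numbered here by their place in the annotated transcript.

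The introns whose sequences are shown were chosen because they carry the patterns described below, and they were read on the coding strand from annotated GENCODE M21 transcripts (GRCm38, the assembly that mm10 names) that keep them. Capitals mark the last 40 bases, which run into the AG of the acceptor site. The first 4 are introns of Zfp276, Zfp687 and Zfp36 that held more reads in H3B-8800 tumors, followed by the end of the first intron of Zfp68.
Zfp276 intron 8 (chr8:123265071-123265313, + strand): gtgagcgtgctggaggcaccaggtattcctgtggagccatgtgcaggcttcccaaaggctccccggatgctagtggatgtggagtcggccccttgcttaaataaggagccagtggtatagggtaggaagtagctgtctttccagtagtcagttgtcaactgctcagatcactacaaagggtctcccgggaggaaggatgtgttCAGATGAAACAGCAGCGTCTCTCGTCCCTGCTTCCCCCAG
Zfp687 intron 5 (chr3:95008918-95009075, − strand): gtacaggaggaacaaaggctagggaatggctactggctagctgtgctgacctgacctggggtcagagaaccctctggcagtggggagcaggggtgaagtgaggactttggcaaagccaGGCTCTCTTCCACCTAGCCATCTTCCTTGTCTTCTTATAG
Zfp687 intron 8 (chr3:95007967-95008071, − strand): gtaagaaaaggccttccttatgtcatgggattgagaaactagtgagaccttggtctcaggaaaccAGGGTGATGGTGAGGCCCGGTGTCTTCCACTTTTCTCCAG
Zfp36 intron 1, last 100 bases (intron chr7:28378494-28379173, − strand): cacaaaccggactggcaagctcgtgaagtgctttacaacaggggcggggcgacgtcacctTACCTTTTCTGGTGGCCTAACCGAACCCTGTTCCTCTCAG
Zfp68 intron 1, last 100 bases (intron chr5:138617168-138619608, − strand): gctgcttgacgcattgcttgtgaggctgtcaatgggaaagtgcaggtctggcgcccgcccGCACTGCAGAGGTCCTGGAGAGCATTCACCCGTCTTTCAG

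For comparison, the next intron held fewer reads in H3B-8800 tumors of PyMT-M and 2208L, and the last pair stayed at one end of the scale in every group, almost fully spliced in Zfp622 and mostly kept in Zfp644.
Zfp511 intron 5, last 100 bases (intron chr7:140039446-140040242, + strand): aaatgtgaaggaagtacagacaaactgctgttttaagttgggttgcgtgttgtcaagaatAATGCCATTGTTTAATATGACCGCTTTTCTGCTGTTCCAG
Zfp622 intron 2 (chr15:25987047-25987160, + strand): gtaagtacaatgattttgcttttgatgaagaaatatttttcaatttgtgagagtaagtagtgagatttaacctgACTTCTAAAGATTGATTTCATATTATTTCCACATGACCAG
Zfp644 intron 3 (chr5:106636324-106636416, − strand): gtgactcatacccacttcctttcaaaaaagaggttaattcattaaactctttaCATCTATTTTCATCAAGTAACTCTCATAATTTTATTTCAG

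Of the member introns, 37 in 23 genes lie inside an exon of another annotated transcript and so have a sequence here, and all 37 begin with GT and end with AG. Among them the 18 called higher in PyMT-M had a median pyrimidine share of 60% in the last 40 bases and the 7 tested and not called had 62.5%. These are descriptions of the introns that could be read, which are not a sample of all member introns.

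Gene levels are given as CPM, counts scaled to a common total of spliced reads, and the share of reads in an intron as the percent of the reads overlapping it that were counted inside it. That percent is not adjusted for intron length, so a long intron collects more reads than a short one kept as often. Changes of gene level are log2 fold changes of H3B-8800 over vehicle with their standard errors from edgeR's quasi-likelihood test, with p-values adjusted over 13001 genes (Benjamini-Hochberg) and called under 0.05. All 72 members passed the filter on low counts. Changes of an intron's reads relative to the spliced reads of its gene were tested in the same way over 52042 introns, of which 346 in 71 member genes passed the filter.

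Per listed intron, Zfp207 and Zfp706 had the highest levels of all members, at 33.7 and 33.4 CPM averaged over the libraries. Zfp740 followed at 13.0, Zfp91 at 9.92, Zfp622 at 9.06 and Zfp36 at 8.99 CPM per intron, and the median member had 2.72. Zfp207, also called BuGZ, binds spindle microtubules and the checkpoint protein Bub3. Zfp91 has ubiquitin ligase activity toward the kinase NIK, Zfp622 takes part in maturation of the large ribosomal subunit, and Zfp36 (tristetraprolin) binds AU-rich elements and promotes decay of cytokine transcripts.

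In PyMT-M tumors 10 members rose and 14 fell, against 10.2% and 14.6% of all genes tested; the members' shares were 13.9% and 19.4%. In 2208L tumors 2 members rose and 4 fell, where 4.67% of all genes rose and 5.67% fell. In AT3 tumors 1 member rose and none fell by edgeR, where 0.123% of all genes rose and 0.177% fell; without adjustment 3 members were higher and 5 lower at p under 0.05, and DESeq2 called 4. In T11, 3 members were higher and 7 lower under the label H3B-8800, where 6.66% and 5.07% of all genes were called. The 6 calls in 2208L became 2 or 3 when any 1 of the H3B-8800 replicates or vehicle replicate 3 was left out. The 10 in T11 became 6, 4 and 6 without the first, the second and the third library labelled H3B-8800, and 21 and 5 without the first and the second labelled vehicle. The median change of the members was 0.06 in PyMT-M, −0.05 in AT3, 0.03 in 2208L and −0.20 in T11 on the log2 scale, and that of all genes lay between −0.04 and 0.02. In all, 28 members were called in at least 1 model and 44 in none. The matching share of all genes was not counted, so this is not read as a trait of the members. Because these are whole tumors, fewer cells of a type and less RNA per cell cannot be told apart.

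**Figure D1:**
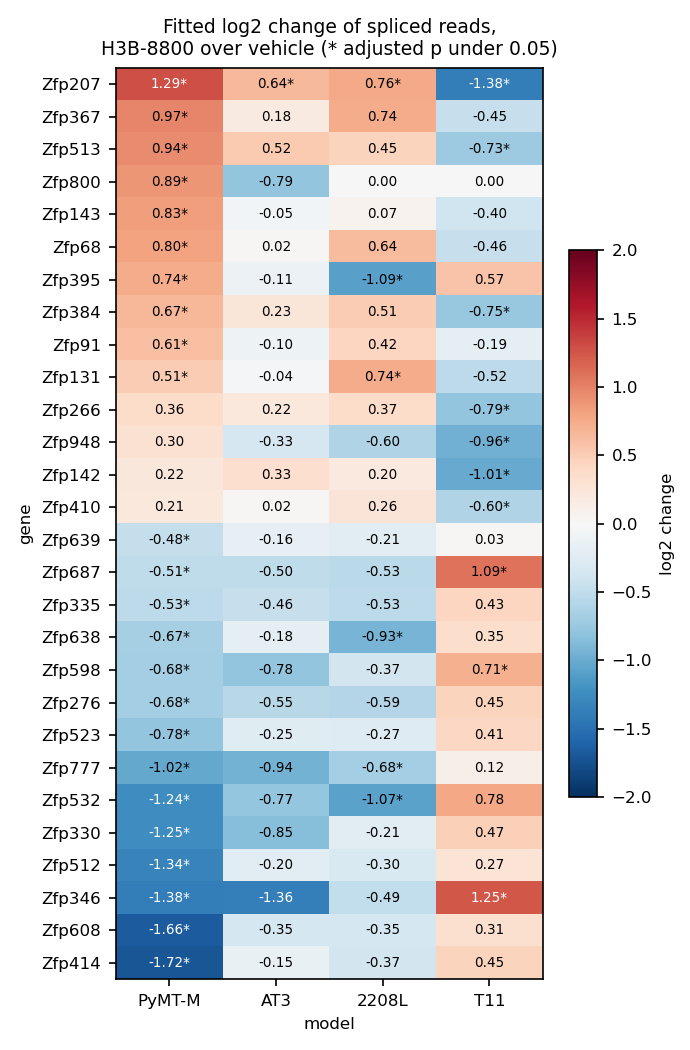
Fitted log2 fold change of gene level, H3B-8800 over vehicle, for the 28 members called in at least 1 model, with 1 row per gene and 1 column per model; an asterisk marks an adjusted p under 0.05. Zfp207 is marked in all 4 columns, positive in PyMT-M, AT3 and 2208L and negative between the T11 groups as labelled.

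Zfp207 was the member called in every model. In PyMT-M it had 292, 277, 272 and 265 CPM in H3B-8800 tumors, against 119, 120, 116 and 96.9 CPM in vehicle tumors, a log2 change of 1.29 ± 0.10 (adjusted p = 1.3e-07). In 2208L it had 286, 264 and 271 CPM in H3B-8800 tumors, against 167, 156 and 164 in vehicle tumors, a change of 0.76 ± 0.12 (adjusted p = 0.000752). In both models every H3B-8800 library lay above every vehicle library. In AT3 it had 216 and 261 CPM in H3B-8800 tumors, against 163, 143 and 154 in vehicle tumors (log2 0.64 ± 0.13, adjusted p = 0.0349). That call was lost in each fit without 1 of the AT3 libraries (adjusted p 0.057 to 0.17). In T11 the order was the reverse, with 113, 110 and 122 CPM in the libraries labelled H3B-8800, against 252.2, 321 and 327 in those labelled vehicle (log2 −1.38 ± 0.12, adjusted p = 6.24e-07), again without overlap.

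The change of Zfp207 did not rest on a single junction. All 6 listed introns, which span chr11:80383496-80395389 on the + strand (mm10), gave more spliced reads in H3B-8800 tumors, with ratios of the H3B-8800 mean to the vehicle mean of 2.15 to 2.74 in PyMT-M, 1.33 to 1.93 in AT3 and 1.29 to 1.85 in 2208L. Between the T11 groups as labelled the 6 ratios lay between 0.342 and 0.469. Unlike most members, its intron reads did not gain on its spliced reads in PyMT-M. Intron 2 (chr11:80386030-80387801) held 19.2, 16.9, 12.8 and 17.0% of its reads in H3B-8800 tumors, against 39.9, 19.9, 31.7 and 36.5% in vehicle tumors, and fell (log2 −1.08 ± 0.36, adjusted p = 0.0101), as did intron 9 (log2 −2.99 ± 0.65, adjusted p = 0.000215). Introns 3, 4 and 10 had too few intronic reads to be tested. Of the 3 tested introns, 1 was called higher in 2208L, 1 was higher under the label H3B-8800 in T11, and 0 were called in AT3.

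Members other than Zfp207 that rose in PyMT-M include the KRAB gene Zfp68 and the promoter-binding factor Zfp143. Zfp143, known at promoters of many housekeeping and small nuclear RNA genes, had 62.5, 48.3, 56.9 and 45.7 CPM in H3B-8800 tumors, against 31.7, 31.9, 28.1 and 28.4 CPM in vehicle tumors (log2 0.83 ± 0.18, adjusted p = 0.00196). Zfp513 had 25.5, 17.6, 21.1 and 16.3 CPM in H3B-8800 tumors, against 9.38, 9.91, 12.4 and 10.2 in vehicle tumors (log2 0.94 ± 0.18, adjusted p = 0.000669). Neither pair of groups overlapped. Zfp68 rose by 0.80 ± 0.23 on the log2 scale (31.9, 32.4, 32.5 and 30.2 CPM in H3B-8800 tumors, against 18, 18.8, 20.7 and 15.1 in vehicle tumors, adjusted p = 0.0147), and the nuclear matrix factor Zfp384 by 0.67 ± 0.19 (54.7, 47.7, 43.9 and 39.9 CPM, against 27.8, 29.9, 28.8 and 30.5, adjusted p = 0.0152). Zfp91 rose by 0.61 ± 0.18 (adjusted p = 0.0169), and its H3B-8800 libraries at 112 to 126 CPM all lay above its vehicle libraries at 63.7 to 88.1. Zfp367 (log2 0.97, adjusted p = 0.0101), Zfp800 (0.89, adjusted p = 0.0372), Zfp131 and Zfp395 make up the rest.

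The 5 members with the largest decreases in PyMT-M were Zfp414, Zfp608, Zfp346, Zfp512 and Zfp330. Zfp414 had 3.49, 4.56, 3.46 and 5.16 CPM in H3B-8800 tumors, against 13.2, 11.8, 10 and 19.9 CPM in vehicle tumors (log2 −1.72 ± 0.28, adjusted p = 0.000215). Zfp608 had 1.89, 2.08, 0.944 and 1.80 CPM in H3B-8800 tumors, against 6.70, 5.54, 3.00 and 6.14 in vehicle tumors (log2 −1.66 ± 0.26, adjusted p = 0.000125). In both genes every H3B-8800 library lay below every vehicle library. Zfp346, which binds double-stranded RNA, had 2.91, 2.08, 3.77 and 2.47 CPM, against 7.25, 6.97, 8.86 and 6.23 in vehicle tumors (log2 −1.38 ± 0.24, adjusted p = 0.00032). Zfp512 had 6.76, 6.64, 5.58 and 8.83 CPM in H3B-8800 tumors, against 18.2, 18.5, 15.5 and 18.1 in vehicle tumors (log2 −1.34 ± 0.18, adjusted p = 2.71e-05). The cysteine-rich nucleolar protein gene Zfp330 had 28.3, 28.6, 35.6 and 29.3 CPM, against 80.2, 68.0, 77.1 and 64.3 in vehicle tumors (log2 −1.25 ± 0.21, adjusted p = 0.000236). These groups did not overlap either. The other members that fell were Zfp532, Zfp777, Zfp523, Zfp598, Zfp276, Zfp638, Zfp335, Zfp687 and Zfp639, with log2 changes of −1.24 to −0.48. Counted with all overlapping reads in place of spliced reads, which adds the reads inside introns, 21 members rose and 6 fell in PyMT-M, where 13% of all genes rose and 13.7% fell on the same scale. On that scale Zfp598, Zfp367, Zfp608 and Zfp335 had the opposite sign.

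In 2208L, Zfp131 and Zfp207 rose. Zfp131, a BTB-domain zinc finger gene, had 30.1, 28.2 and 27.8 CPM in H3B-8800 tumors, against 16.5, 18.4 and 16.5 CPM in vehicle tumors (log2 0.74 ± 0.18, adjusted p = 0.0146), and in PyMT-M it rose by 0.51 ± 0.16 (adjusted p = 0.0234). Zfp638, a large nuclear RNA-binding protein linked to silencing of unintegrated retroviral DNA, had 62.6, 69.7 and 51.9 CPM in H3B-8800 tumors, against 122, 99.8 and 127 in vehicle tumors (log2 −0.93 ± 0.13, adjusted p = 0.000371). Zfp638 fell in PyMT-M as well, to 59.6, 64.5, 51.7 and 56.0 CPM in H3B-8800 tumors, against 85.3, 93.0, 88.8 and 101 in vehicle tumors (log2 −0.67 ± 0.11, adjusted p = 0.000199). None of these groups overlapped. Zfp532, whose human counterpart is fused to NUTM1 in some NUT carcinomas, fell in 2208L by 1.07 on the log2 scale (adjusted p = 0.045) and in PyMT-M by 1.24 (adjusted p = 0.00401). The KRAB gene Zfp777 fell in PyMT-M by 1.02 (adjusted p = 0.000667) and in 2208L by 0.68, at the edge of the threshold (adjusted p = 0.05).

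Zfp395 moved in opposite directions in the 2 models the labels call responders. In PyMT-M it had 184, 251, 164 and 121 CPM in H3B-8800 tumors, against 122, 96.8, 126 and 87.7 CPM in vehicle tumors (log2 0.74 ± 0.26, adjusted p = 0.0428), and the groups overlapped at 1 library. In 2208L it had 24.8, 27.3 and 30.3 CPM in H3B-8800 tumors, against 48.2, 51.1 and 76.4 in vehicle tumors (log2 −1.09 ± 0.31, adjusted p = 0.0285), with no overlap. The difference of the changes, PyMT-M minus 2208L, was 1.83 ± 0.40 (adjusted p = 0.0214). That call was lost without H3B-8800 replicate 1, H3B-8800 replicate 2 or vehicle replicate 3 of 2208L (adjusted p 0.0751, 0.0565 and 0.0728) and with the replicate number as a block (adjusted p = 0.0567). Zfp512 was the other member whose change differed between these models (−1.04 ± 0.27, adjusted p = 0.0494), and its call held in 3 of the 14 fits without 1 library (adjusted p 0.0251 to 0.144). Over all genes the change was greater in PyMT-M than in 2208L for 0.615% and smaller for 1.31%. Between PyMT-M and AT3 no member differed by edgeR, with 5 on each side at an unadjusted p under 0.05 and 6 called by DESeq2; over all genes 0.338% had a greater and 0.761% a smaller change in PyMT-M.

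**Figure D2:**
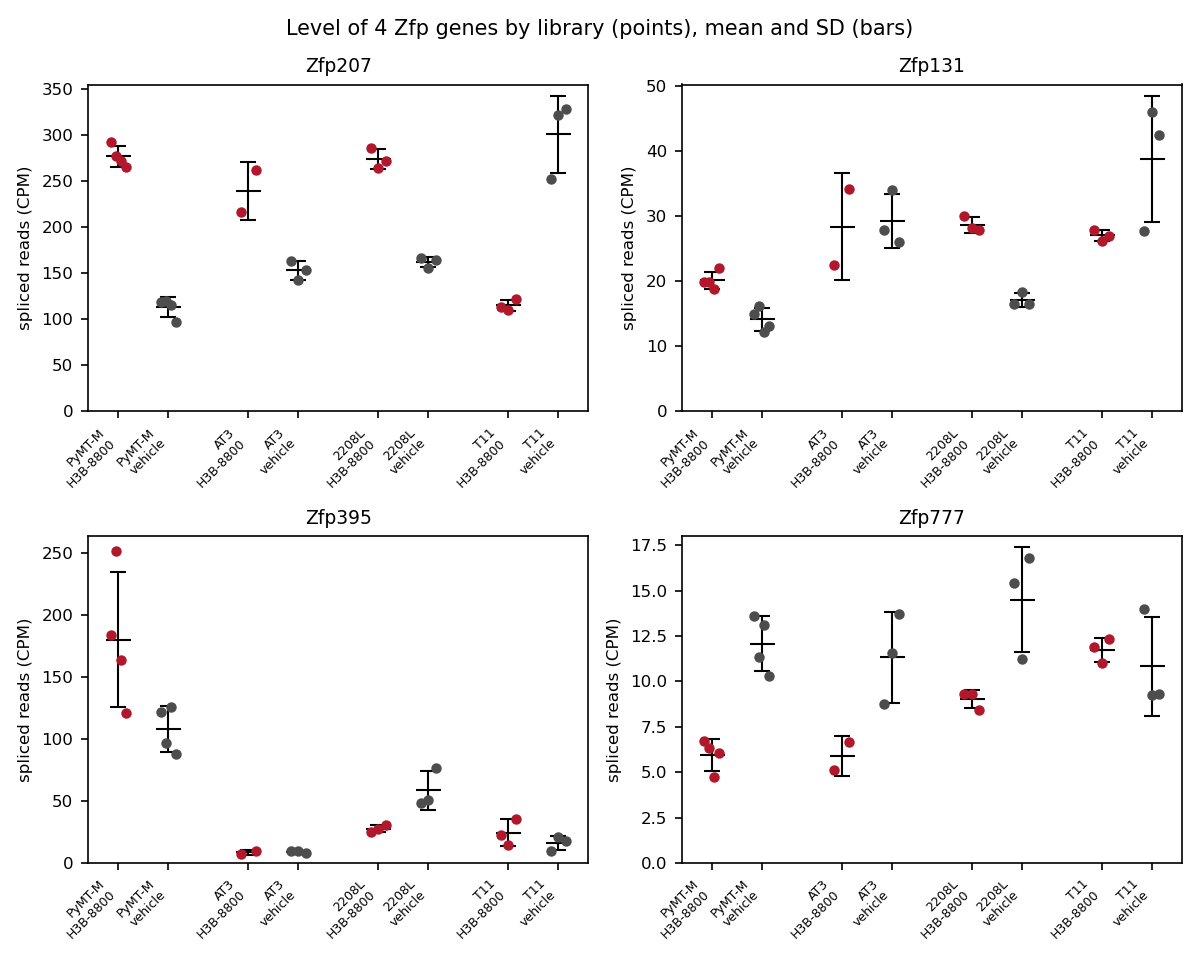
Gene level in CPM of Zfp207, Zfp131, Zfp395 and Zfp777 in each library (points) with the group mean and SD (bars), H3B-8800 left of vehicle in each model. Zfp207 is higher in the H3B-8800 libraries of PyMT-M, AT3 and 2208L and lower under that label in T11, and Zfp395 runs in opposite directions in PyMT-M and 2208L.

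Between the T11 groups, 6 of the 10 members called were also called in PyMT-M, each with the opposite sign. The matching share over all genes was not counted. Zfp346 had 14.9, 15.5 and 17.6 CPM in the libraries labelled H3B-8800, against 6.75, 7.17 and 6.26 CPM in those labelled vehicle (log2 1.25 ± 0.27, adjusted p = 0.00501). Zfp687, whose human counterpart is mutated in a severe form of Paget's disease of bone, had 14.5, 13.8 and 18.4 CPM, against 7.10, 8.04 and 6.76 (log2 1.09 ± 0.20, adjusted p = 0.00146). Neither gene's groups overlapped. Zfp598, a ubiquitin ligase that marks collided ribosomes, was higher by 0.71 ± 0.16 in the libraries labelled H3B-8800 (adjusted p = 0.0082) and had fallen by 0.68 in H3B-8800 tumors of PyMT-M (adjusted p = 0.00161). Zfp207, Zfp384 and Zfp513 were lower under that label and higher in H3B-8800 tumors of PyMT-M. Zfp410, which activates Chd4, was lower by 0.60 ± 0.18 under the label H3B-8800 (27.8, 29.6 and 34.5 CPM, against 43.2, 54.4 and 42.2, adjusted p = 0.0367) and was not called in the other models. Fitted on the T11 libraries alone, none of these 10 calls passed the threshold.

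Some members with well-known roles were not called in the drug comparison of any model. Zfp36 averaged 11.1 ± 1.81 CPM in H3B-8800 tumors and 10.2 ± 1.30 CPM in vehicle tumors of PyMT-M (SD, n = 4 each, adjusted p = 0.782). Zfp217, whose human counterpart is an amplified breast cancer oncogene, averaged 10.8 ± 2.69 and 13.0 ± 1.98 CPM in the same groups (adjusted p = 0.44). Zfp809, a KRAB protein that silences endogenous retroviruses through their primer binding site, averaged 17.6 ± 4.77 and 11.8 ± 2.46 CPM (adjusted p = 0.194). The GC-box binding factor Zfp148 averaged 56.0 ± 3.79 and 33.1 ± 6.72 CPM (adjusted p = 0.105), and the RNA-binding protein gene Zfp106 191 ± 7.68 and 192 ± 21.6 CPM (adjusted p = 0.989).

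The 17 KRAB members were also counted apart in the drug comparisons. In PyMT-M 1 rose and 1 fell, beside 9 and 13 of the other 55. In 2208L none rose and 1 fell, beside 2 and 3, and in AT3 none of the 17 was called, beside 1 of the 55. In T11 none was higher and 2 were lower under the label H3B-8800, beside 3 and 5. Of all genes tested, 10.2% rose and 14.6% fell in PyMT-M, 4.67% and 5.67% in 2208L, and 0.123% and 0.177% in AT3. Between the T11 groups 6.66% of all genes were higher and 5.07% lower under that label. The median log2 change of the KRAB members was 0.36 in PyMT-M, 0.17 in AT3, 0.16 in 2208L and −0.46 in T11, beside 0.02, −0.10, −0.04 and −0.10 for the other 55. Whether these classes differ was not tested, and the other 55 may include KRAB genes that the pattern missed. The median level of the 17 was 2.58 CPM per listed intron and that of the other 55 was 2.72.

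Many genes of the machinery of KRAB silencing and related heterochromatin had fewer spliced reads in PyMT-M H3B-8800 tumors. They were not counted with all overlapping reads, so whether they fell on that scale was not tested. Of 27 measured genes for TRIM28 and its partners, the HUSH and MORC proteins, histone and DNA methyltransferases, HP1 proteins and the NuRD complex, none rose and 16 fell in PyMT-M, where 14.6% of all genes fell, with a median change of −0.56, beside 0.02 over all genes. Chd4, the NuRD helicase, averaged 212 ± 17.4 CPM in H3B-8800 tumors and 364 ± 37.6 CPM in vehicle tumors (SD, n = 4 each; log2 −0.78 ± 0.10, adjusted p = 2.67e-05), and Setdb1, the methyltransferase that TRIM28 recruits, averaged 37.5 ± 4.97 and 66.4 ± 9.16 CPM (log2 −0.82 ± 0.13, adjusted p = 0.000186). Trim28 itself averaged 201 ± 24.8 and 265 ± 40.5 CPM (log2 −0.40 ± 0.15, adjusted p = 0.0522). In 2208L Setdb1, Mphosph8, Cbx1 and Uhrf1 fell, with changes of −1.05 to −0.44, and none rose, where 5.67% of all genes fell and 4.67% rose. In AT3 none of the 27 was called, where 0.123% of all genes rose and 0.177% fell. In T11, 6 were higher under the label H3B-8800 and none was lower, with Setdb1 at 0.50 ± 0.15 (adjusted p = 0.039). Of all genes 6.66% were higher and 5.07% lower there.

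Markers of host cells moved along with the treatment in some models. The summed level of 5 macrophage genes was 574 to 926 CPM in H3B-8800 tumors and 114 to 407 CPM in vehicle tumors of PyMT-M, and 2520 to 3009 CPM and 206 to 1367 CPM in those groups of 2208L; 4 of the 5 rose in each. No macrophage marker was at 0 in any group. The 7 B cell genes summed to 36.5 to 54.2 CPM in H3B-8800 tumors and 2.44 to 5.10 CPM in vehicle tumors of 2208L, where none of them was called. In PyMT-M 2 of 4 tested adipocyte genes (Plin1 and Adipoq) and 1 of 5 fibroblast genes (Dcn) rose, the adipocyte list at 13.6 to 249.8 CPM in H3B-8800 tumors and 16.8 to 56.9 CPM in vehicle tumors, the fibroblast list at 2133 to 5308 and 1268 to 4262 CPM, and the muscle list at 1.69 to 388 and 2.81 to 7.72 CPM. Of the 7 epithelial genes only Krt14 was called in PyMT-M and in 2208L, and it rose in both. The summed epithelial list had medians of 4470 CPM in H3B-8800 tumors and 5198 CPM in vehicle tumors of PyMT-M. In 2208L the medians were 3702 and 4183 CPM. In T11 5 of 7 B cell and 5 of 6 T cell genes were higher under the label H3B-8800, with T cell genes at 4.29 to 89.2 CPM in those libraries and 0.379 to 0.976 CPM in those labelled vehicle, and B cell genes at 1.46 to 217 and 0.379 to 0.659 CPM. Both highest values came from replicate 2, where the others under that label held 4.29 and 8.78 CPM of T cell and 1.46 and 1.93 CPM of B cell genes. Over all genes 10.2% rose in PyMT-M, 4.67% rose in 2208L and 6.66% were higher under the label H3B-8800 in T11. The epithelial list summed to 2977 to 7061 CPM over PyMT-M, 3311 to 4740 CPM over 2208L, 183 to 426 CPM over AT3 and 103 to 226 CPM over T11 libraries, so tumor epithelium markers were low in the last pair. In 2208L 1 vehicle library held 4246 CPM of muscle genes, and 1 T11 library labelled vehicle held 6578 CPM. The same T11 replicate 2 labelled H3B-8800 held 704 CPM of muscle genes, with 217 CPM of B cell and 89.2 CPM of T cell genes. In AT3 1 vehicle library held 72.1 CPM of B cell genes. The part of these cells in the changes of the zinc finger genes was not tested. Without these 4 libraries 3 members were called in 2208L, 3 in T11 and none in AT3, and Zfp207 was among the AT3 calls lost (adjusted p = 0.228).

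Reads inside the introns of these genes gained on their spliced reads in H3B-8800 tumors of 3 models. Pooled over all member introns, the share of overlapping reads counted inside introns was 51.4 ± 3.85% in H3B-8800 tumors and 32.2 ± 8.41% in vehicle tumors of PyMT-M (SD, n = 4 each; exact two-sided permutation p = 0.0286, the smallest this design allows). It was 42.0 ± 8.60% and 27.7 ± 6.24% in AT3 (n = 2 and 3; exact permutation p = 0.2, the smallest possible) and 29.9 ± 1.22% and 19.6 ± 3.05% in 2208L (n = 3 each; exact permutation p = 0.1, the smallest possible). In these 3 models the lowest H3B-8800 library lay above the highest vehicle library. In T11 the share was 24.3 ± 3.54% under the label H3B-8800 and 33.8 ± 5.86% under the label vehicle (n = 3 each; exact permutation p = 0.2, where 0.1 is the smallest possible), and the groups overlapped. Member introns held more of their reads than the introns of all genes together, which had 23.7 ± 4.23% in H3B-8800 tumors and 14.3 ± 4.17% in vehicle tumors of PyMT-M. Both shares are pooled over reads, so genes with many reads weigh most. The 2 sets were not matched for gene level or intron length.

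**Figure D3:**
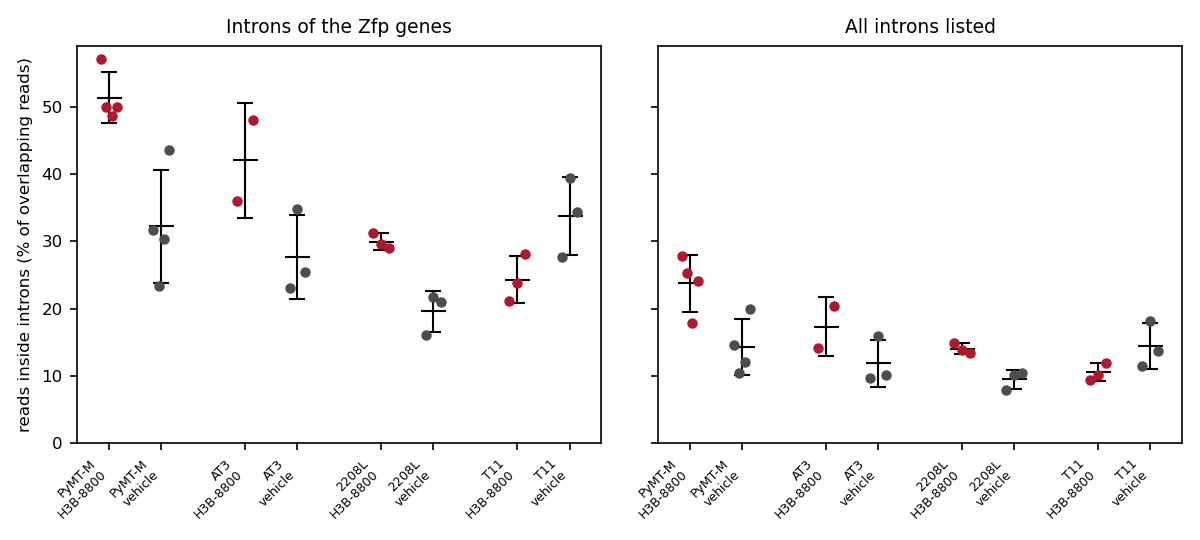
Percent of overlapping reads counted inside introns in each library (points), with group means and SD, for the introns of the 72 Zfp genes (left) and all introns (right). In PyMT-M the member introns hold 48.6 to 57.1% in H3B-8800 libraries and 23.3 to 43.6% in vehicle libraries, and the T11 groups run the other way.

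Taken gene by gene, the mean percent was higher in H3B-8800 tumors for 66 of the 72 members in PyMT-M, 66 in AT3 and 67 in 2208L. Over all 13001 genes tested it was higher for 79.8% in PyMT-M, 80.12% in AT3 and 79.94% in 2208L. The median difference was 19.7 percentage points in PyMT-M, 14.6 in AT3 and 12.7 in 2208L, beside 11.6, 8.63 and 5.51 points over all genes tested. Zfp335, a component of a histone H3K4 methyltransferase complex needed for neurogenesis, had the greatest difference in PyMT-M, with 63.5 ± 5.74% in H3B-8800 tumors and 10.6 ± 3.15% in vehicle tumors (SD, n = 4 each). Several of its introns lie under exons of Pcif1 on the opposite strand, as described below. Zfp330 followed Zfp651, with 65.5 ± 6.77% and 18.1 ± 4.83%. In T11, 13 of 72 members were higher under the label H3B-8800, beside 21.49% of all genes. The median difference there was −8.10 points, beside −5.12 over all genes.

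In the test relative to spliced reads, 183 of the 346 member introns rose and 21 fell in PyMT-M, where 54.7% and 5.68% of all introns tested were called. In AT3 82 rose and 1 fell, where 19.4% and 0.317% of all introns were called, and in 2208L 74 rose and 3 fell, where 21% and 0.534% were called. For T11, 4 were higher and 73 lower under the label H3B-8800, beside 0.761% and 19.6% of all introns. The members' shares were thus near those of all introns in each model. The median log2 change of member introns was 1.46 in PyMT-M, 1.13 in AT3, 1.10 in 2208L and −0.80 in T11, beside 1.57, 1.10, 1.07 and −0.84 over all introns. Of the 71 genes with a tested intron, 60 (84.5%) had at least 1 that rose in PyMT-M, 41 (57.7%) in AT3 and 42 (59.2%) in 2208L, beside 77.4%, 49.1% and 51.9% of the 9859 genes with a tested intron. In T11, 35 (49.3%) had at least 1 that was lower under the label H3B-8800, beside 47% of all genes. The count of called member introns depended on single libraries outside PyMT-M. Leaving out H3B-8800 replicate 2 of AT3 brought it to 19, leaving out its vehicle replicate 1 to 36 and its vehicle replicate 3 to 53. For 2208L the counts were 41 when vehicle replicate 1 was left out and 51 when H3B-8800 replicate 1 was, and in T11 43 without the second library labelled vehicle and 50 and 48 without the first and the second library labelled H3B-8800.

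No member intron changed differently between PyMT-M and AT3 or between PyMT-M and 2208L by edgeR. Without adjustment 15 had a greater and 17 a smaller change in PyMT-M than in AT3 at p under 0.05, and 23 and 17 against 2208L; limma called 0 and 1. Over all introns 0.00192% had a greater and 0% a smaller change in PyMT-M than in AT3, and 0.0845% and 0.0307% against 2208L. Set against the mean change of the other 3 models, 179 member introns were lower and 10 higher in T11, where 49.6% and 2.56% of all introns were called.

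In all 3 models other than T11, 44 member introns in 29 genes rose, which is 12.7% of the member introns tested, beside 10.7% of all introns tested. All 44 had a negative change between the T11 groups as labelled, and 29 of them were called lower. Over all introns tested the median T11 change was −0.84. The T11 calls among the introns of all genes that rose in the 3 models were not counted. The T11 direction is thus not read as a trait of the member introns. These introns include the first intron of Zfp68 and introns of Zfp644, Zfp276, Zfp598, Zfp335 and Zfp395.

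Intron 1 of Zfp68 (chr5:138617168-138619608, − strand, 2441 bases) had the widest swing among them. It held 90, 81.8, 88.3 and 86.2% of its reads in H3B-8800 tumors of PyMT-M, against 2.90, 5.56, 2.90 and 11.1% in vehicle tumors (log2 6.57 ± 0.63, adjusted p = 8.33e-10). In 2208L it held 66.7, 49.5 and 57.7% in H3B-8800 tumors, against 0% in all 3 vehicle tumors (adjusted p = 1.05e-05). The AT3 values were 85.0 and 86.5% in H3B-8800 tumors, against 19, 18.8 and 0% in vehicle tumors (adjusted p = 0.0002). In each of these models the groups were far apart. Between the T11 groups it held 10.3, 3.23 and 9.09% in the libraries labelled H3B-8800, against 50, 56.3 and 67.6% in those labelled vehicle (log2 −3.84 ± 0.66, adjusted p = 9e-05). The intron holds an annotated exon, and 13.15% of it lies under Gm42815 on the opposite strand. The use of strand in the deposited counts is not given in the sources used here.

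Zfp276 gained reads in every intron tested in PyMT-M, 9 of 9. Its intron 8, shown above and 243 bases long, held 88.0, 81.7, 76.7 and 81.1% in H3B-8800 tumors, against 5.56, 8.20, 2.99 and 2.90% in vehicle tumors (log2 5.62 ± 0.66, adjusted p = 2.81e-08). In AT3 it held 30.0 and 60% in H3B-8800 tumors, against 13.0, 6.90 and 3.57% in vehicle tumors (adjusted p = 0.00233), and in 2208L 45.2, 34.4 and 33.3%, against 0% in all 3 (adjusted p = 0.000146). The T11 libraries labelled H3B-8800 had 0, 0 and 6.45%, against 23.1, 40 and 64.3% in those labelled vehicle (adjusted p = 0.000842).

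Zfp598 gained reads in 11 of 11 introns tested in PyMT-M. Its intron 3 (chr17:24677186-24677409, + strand) held 75.4, 74.6, 69.6 and 82.5% in H3B-8800 tumors, against 5.66, 3.17, 15.1 and 20% in vehicle tumors (log2 4.54 ± 0.57, adjusted p = 5.57e-08). In 2208L it held 54.9, 34.2 and 28.4%, against 4.08, 3.77 and 1.82% in vehicle tumors (adjusted p = 0.000335). All H3B-8800 libraries lay above all vehicle libraries of their model. The spliced reads of Zfp276 and Zfp598 fell in the same PyMT-M tumors, by 0.68 on the log2 scale in each gene.

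Intron 6 of Zfp644, a partner of the G9a and GLP histone methyltransferases, lies at chr5:106618429-106619539 on the − strand. It held 83.7, 72.4 and 78.0% in H3B-8800 tumors of 2208L, against 4.76, 19.5 and 21.4% in vehicle tumors (log2 3.71 ± 0.71, adjusted p = 0.000408), and 71.9, 54.5, 51.0 and 67.7% in those of PyMT-M, against 3.45, 0, 7.41 and 6.25% (adjusted p = 7.72e-07). Its intron 3, whose sequence is given above, behaved otherwise: it held 65.3 to 84.5% in all 8 PyMT-M libraries (log2 0.09 ± 0.39, adjusted p = 0.849). The same transcript thus held an intron that swung widely and a much shorter one that was mostly kept with and without H3B-8800. Gene levels of Zfp644 were 12.1 ± 1.05 CPM in H3B-8800 tumors and 12.3 ± 1.37 CPM in vehicle tumors of PyMT-M (SD, n = 4 each).

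Zfp335 gained reads in 17 of 18 introns tested in PyMT-M. Its introns 21 to 27 lie wholly under exons of Pcif1 on the opposite strand, and intron 20 does over 89.72% of its length. Intron 24 (chr2:164892771-164892877, − strand) held 81.7, 74.4, 73.6 and 81.6% in H3B-8800 tumors, against 2.86, 0, 2.08 and 7% in vehicle tumors (adjusted p = 6.13e-07). This intron lies wholly under the last exon of Pcif1, which is transcribed from the opposite strand, so reads of the genes can be told apart only by strand. Pcif1 had 28.1 to 59.5 CPM over the libraries and 34.4 to 41.9 CPM in 2208L vehicle tumors, where Zfp335 intron 24 had no intronic read. These CPM count the spliced reads of Pcif1 and not reads within its exons. Whether reads of Pcif1 were counted in introns of Zfp335 was not tested. In 2208L H3B-8800 tumors the intron held 32.1, 41.7 and 19.5% (adjusted p = 0.0016).

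The introns of Zfp395, the KRAB genes Zfp282 and Zfp777, and Zfp462, a heterochromatin regulator, complete the set with the greatest mean difference over the 3 models. Intron 4 of Zfp395 (chr14:65388900-65391286, + strand) held 92.7, 80.5, 84.5 and 86.2% in H3B-8800 tumors of PyMT-M, against 25.1, 8, 32.5 and 38.5% in vehicle tumors (adjusted p = 1.18e-08), and 38.1, 65.1 and 48.7% in those of 2208L, against 5.88, 14.1 and 12.9% (adjusted p = 0.00106). The intron thus gained reads in both models although the gene's spliced reads rose in PyMT-M and fell in 2208L. Intron 7 of Zfp282, intron 3 of Zfp777 and intron 6 of Zfp462 rose by 3.00 to 3.87 on the log2 scale in PyMT-M and by 1.75 to 3.88 in 2208L.

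**Figure D4:**
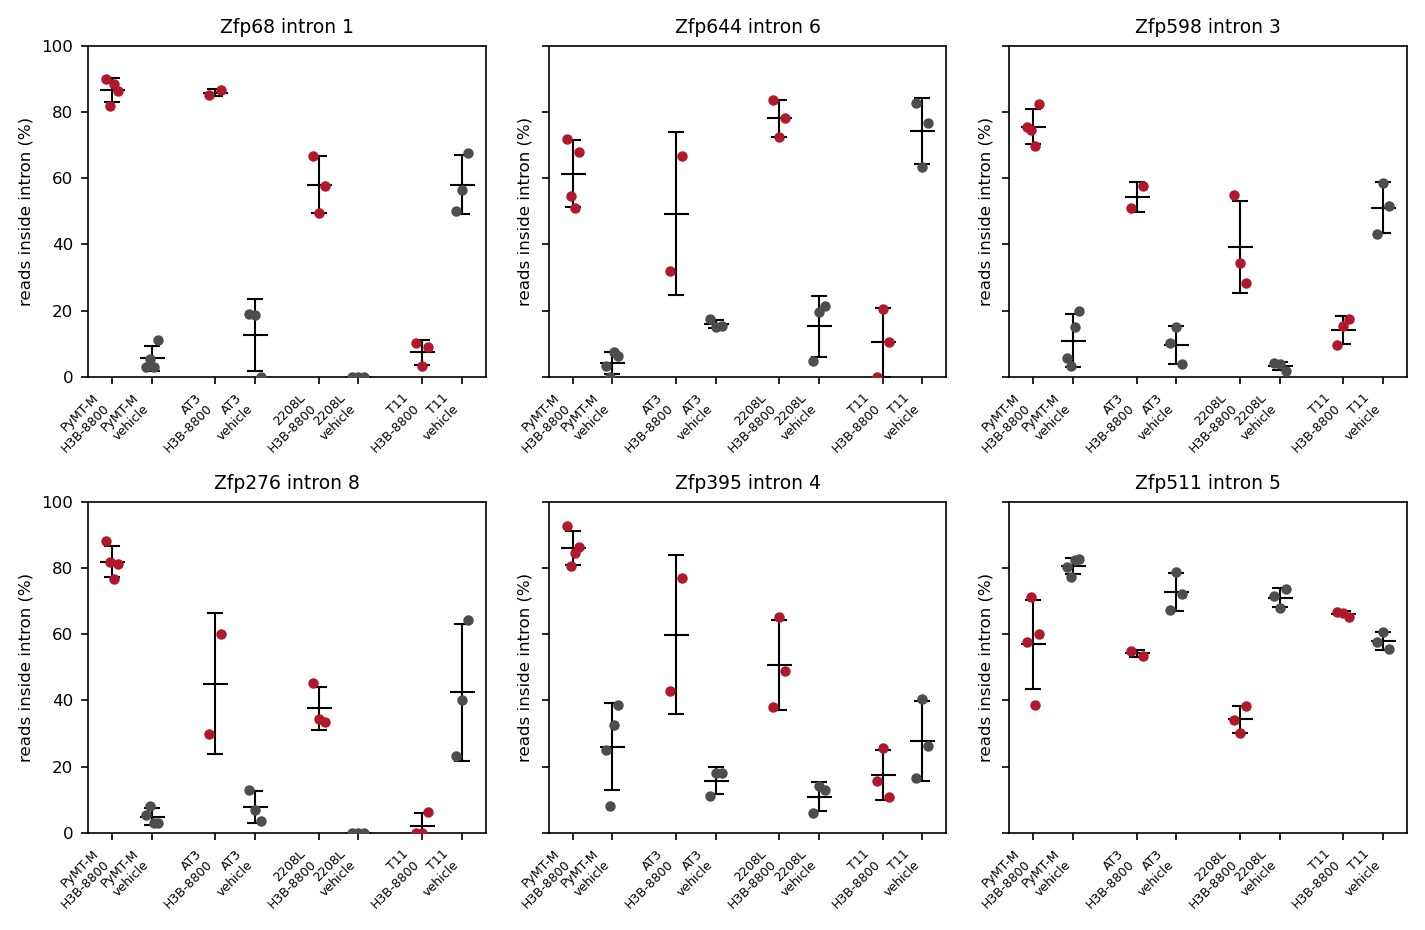
Percent of overlapping reads counted inside an intron in each library (points) with group means, for Zfp68 intron 1, Zfp644 intron 6, Zfp598 intron 3, Zfp276 intron 8, Zfp395 intron 4 and Zfp511 intron 5, H3B-8800 left of vehicle in each model. The first 5 are high in the H3B-8800 libraries of PyMT-M, AT3 and 2208L and Zfp511 intron 5 is low there in PyMT-M and 2208L.

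The next introns, 3 in all, were chosen because they rose in PyMT-M and differed by under 5 points in 2208L. Zfp638 intron 10 (chr6:83953388-83954710, + strand) held 62.7, 32.9, 43.7 and 53.1% in H3B-8800 tumors of PyMT-M, against 0, 2.94, 0 and 6.06% in vehicle tumors (log2 5.55 ± 0.95, adjusted p = 8.88e-06). In 2208L it held 0, 3.70 and 0% in H3B-8800 tumors and 3.51, 0 and 0% in vehicle tumors. The PyMT-M groups were far apart and the 2208L libraries were all near 0; this contrast between the models was fixed by the choice and is given without a test. Zfp335 intron 23 and Zfp142 intron 7 were the others, at 6.00 and 2.11 on the log2 scale in PyMT-M. Zfp335 intron 23 lies wholly under exons of Pcif1 on the opposite strand.

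The introns in this paragraph and the next were chosen after their values were seen. The single intron of Zfp36 (680 bases) held 47.7, 41.4, 45 and 39.7% in H3B-8800 tumors of PyMT-M, against 20.8, 6.83, 17.6 and 12.5% in vehicle tumors (log2 2.14 ± 0.51, adjusted p = 0.00053), and 20.7, 25.5 and 25% in those of 2208L, against 0, 8.87 and 8.20% (adjusted p = 0.0106). All H3B-8800 libraries lay above the vehicle libraries in both models, while its gene level was not called in either. In Zfp687 all 4 introns tested rose in PyMT-M and all 4 were lower under the label H3B-8800 in T11. Its intron 8 of 105 bases held 63.2, 45.2, 48.7 and 47.8% in H3B-8800 tumors of PyMT-M, against 0, 5.17, 0 and 0% in vehicle tumors (adjusted p = 3.13e-05), and its intron 5 of 158 bases 67.3, 50, 38.3 and 31.1%, against 11.1, 7.02, 10.6 and 5.41% (adjusted p = 0.000259). Intron 2 of Zfp622, of 114 bases, held 0 to 4.63% in those 8 libraries and had too few intronic reads to be tested.

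A few introns fell. Intron 5 of Zfp511, the last intron of that gene, held 34.1, 30.3 and 38.3% in H3B-8800 tumors of 2208L, against 71.4, 67.9 and 73.6% in vehicle tumors (log2 −2.16 ± 0.42, adjusted p = 0.000461). In PyMT-M it held 57.7, 71.2, 38.6 and 60% in H3B-8800 tumors, against 80.3, 77.2, 82.2 and 82.7% in vehicle tumors (adjusted p = 0.00244). In AT3 the values were 54.9 and 53.5%, against 67.2, 78.7 and 72.0% (adjusted p = 0.172). Every H3B-8800 library was below every vehicle library of its model, and an annotated protein-coding transcript keeps this intron. Zfp326, a subunit of the DBIRD complex that links splicing to elongation by RNA polymerase II, lost reads in 2 neighbouring introns that hold annotated exons. Its intron 4 held 24.4, 29.7, 25 and 12% in H3B-8800 tumors of PyMT-M, against 72.2, 50, 66.7 and 47.1% in vehicle tumors (adjusted p = 0.00421), and 7.69 and 27.3% in those of AT3, against 62.7, 80.0 and 60% (adjusted p = 0.0164). Its intron 5 fell in PyMT-M by 3.34 on the log2 scale (adjusted p = 9.43e-05).

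In PyMT-M the share of introns called higher was lowest among the longest introns. Of the 42 tested introns of up to 300 bases, 71.4% rose and 0% fell; of the 69 of 301 to 1000 bases, 75.4% rose and 2.90% fell; of the 126 of 1001 to 3000 bases, 54.0% rose and 3.97% fell; of the 74 of 3001 to 10000 bases, 37.8% rose and 4.05% fell; and of the 35 over 10000 bases, 14.3% rose and 31.4% fell. Over all introns tested, the share that rose in these classes was 74, 66.7, 58.8, 42.5 and 10.9%, and the share that fell 0.742, 1.60, 2.56, 4.73 and 35.7%. The introns that rose had a median length of 1118 bases and those that fell 13649 bases. Among the long ones that fell was intron 1 of Zfp148 (40293 bases), which held 18.9, 35.2, 31.9 and 28.3% in H3B-8800 tumors, against 44.0, 78.8, 40.5 and 95.8% in vehicle tumors (adjusted p = 0.000827). In 2208L the share that rose was 19, 20.3, 23.8, 25.7 and 8.57% over the same length classes, beside 27.6, 23.8, 22.5, 17.9 and 6% of all introns. In AT3 it was 38.1, 30.4, 23.0, 17.6 and 8.57%, beside 26.5, 24.3, 20.3, 14.2 and 5.84%. The share lower under the label H3B-8800 in T11 was 42.9, 27.5, 22.2, 10.8 and 0%, beside 34.2, 25.4, 18.9, 12.1 and 4.53%. In 2208L the members' share was lower than that of all introns in both classes of up to 1000 bases and higher in the longer classes, a difference that was not tested. Introns of 1 gene share their transcript, so these are counts and not independent trials, and the percent itself is not adjusted for length.

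**Figure D5:**
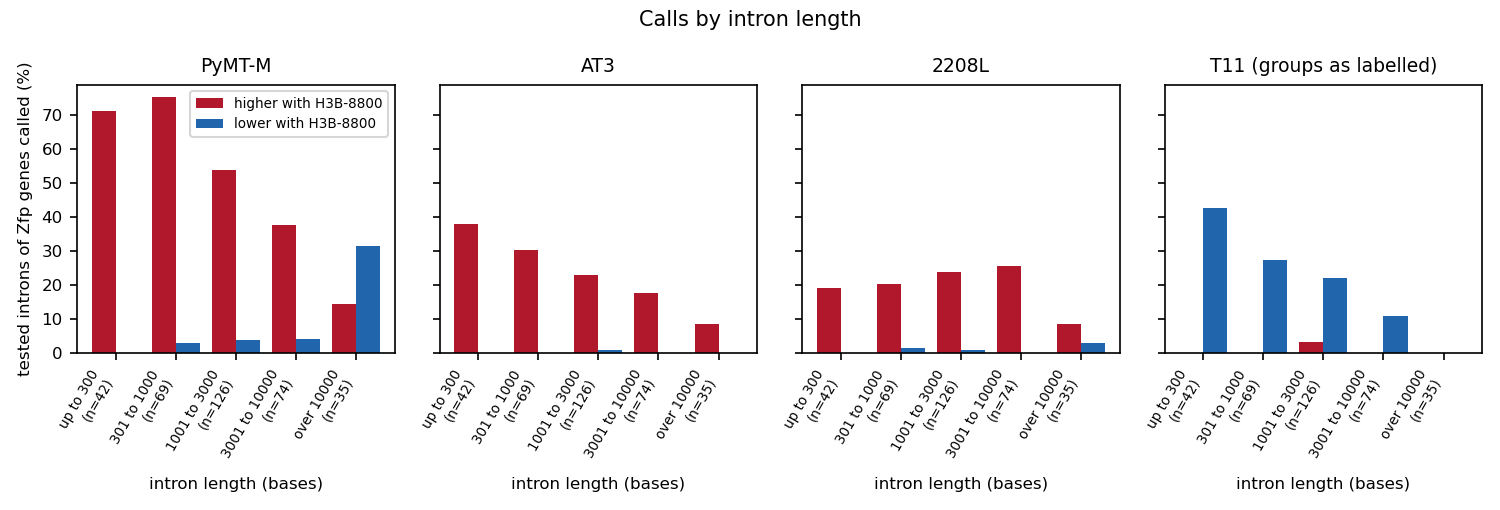
Percent of tested member introns called higher or lower in H3B-8800 than in vehicle libraries, by length class in bases and model, T11 by its labels. In PyMT-M the share called higher is 71.4% up to 300 bases and 14.3% over 10000 bases, where 31.4% are called lower.

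Vehicle tumors of the 2 C57BL/6 models differed in many members. In PyMT-M over AT3, 23 members were higher and 11 lower, where 32.1% and 28% of all genes were called, and the median log2 difference was 0.24, beside 0.08 over all genes. PyMT-M gave more and deeper libraries than AT3 to the mean read count that chose the members. The choice thus favors genes high in PyMT-M, and these splits, that of the KRAB members below included, are not read as a trait of the members. Zfp362, named after its values were seen, averaged 43.5 ± 5.74 CPM in PyMT-M (SD, n = 4) and 1.11 ± 0.758 CPM in AT3 vehicle tumors (n = 3), a fitted difference of 5.26 ± 0.33 (adjusted p = 2.22e-11), with 33.8 ± 4.86 CPM in 2208L and 6.43 ± 0.888 CPM in the T11 libraries labelled vehicle. Its levels were high in both models with high epithelial markers and low in both others. Zfp395 showed the same order, with 108 ± 18.7 CPM in PyMT-M and 9.12 ± 0.874 CPM in AT3 vehicle tumors (3.57 ± 0.33, adjusted p = 7.86e-09) and 58.5 ± 15.5 CPM in 2208L and 16.2 ± 5.61 CPM in T11. Zfp532 (21.0 ± 4.49 and 2.82 ± 0.372 CPM) was also higher in PyMT-M. Zfp810, just inside the level threshold, averaged 17.4 ± 3.27 CPM in PyMT-M and 1.42 ± 0.296 CPM in AT3 vehicle tumors; its mean over the libraries reached the threshold through the PyMT-M libraries, so this difference is a description. Zfp367 averaged 3.51 ± 0.768 CPM in PyMT-M and 15.3 ± 0.679 CPM in AT3 vehicle tumors (−2.11 ± 0.28, adjusted p = 1.3e-06), and Zfp608 5.34 ± 1.63 and 19.3 ± 3.75 CPM (−1.85 ± 0.26, adjusted p = 2.74e-06). Of the 17 KRAB members 8, Zfp810 among them, were higher and 1 lower in PyMT-M, beside 15 and 10 of the other 55.

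Averaged over models and treatments, 10 members were higher and 18 lower in the C57BL/6 than in the Balb/c models, where 25.5% and 29.6% of all genes were called; with all overlapping reads counted the split was 17 higher and 13 lower, beside 28% and 29.5% of all genes. Zfp462 had the greatest positive difference (1.53 ± 0.14, adjusted p = 6.87e-09) and Zfp532 the greatest negative one (−1.27 ± 0.18, adjusted p = 3.62e-06). For no called member did the libraries of both C57BL/6 models separate from those of both Balb/c models, and strain and tumor model cannot be told apart.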

How the data were processed

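RNA of whole tumors from 25 mice was sequenced after polyA selection with a stranded kit, per the labels' protocols. Per the submitters' processing notes, HISAT2 2.0.4 was used and the builds mm10 and hg38 are named; the coordinates match mm10. Not given in the sources used here are the counting tool, the annotation release and the use of strand in counting. The deposited files give, for each intron, counts of intronic reads and of all overlapping reads, and RPKM values that the authors computed and that were not used. Spliced reads are the difference of the 2 counts. Depth was 9820825 to 19700955 spliced and 858362 to 5684308 intronic reads per library. 22 introns of up to 11 bases were left out.

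The labels describe the replicates of a condition as separate tumors. Genes with at least 1 CPM in 2 libraries (13001) and introns with means of at least 5 intronic and 10 spliced reads (52042) were fitted over all 8 groups with edgeR 4.0.16 in R 4.3.3 (TMM, robust quasi-likelihood), introns with an offset, the log of spliced reads of the gene. An intron with reads in 1 group only can pass this filter. DESeq2 1.42.0, limma 3.58.1, other filters, library subsets and a replicate block were alternatives. On simulated data the PyMT-M gene fit recovered 62% of 100 genes changed by 1 (log2) and 97% of 100 changed by 2. The intron fit recovered 3% and 28% of as many introns. In the libraries themselves 54.7% of all introns tested were called higher in PyMT-M, so these rates need not hold there. What share of small changes the fits to the libraries miss was not tested. The members and the gene lists were chosen with earlier results of these data known. Named genes were the 12 highest per intron, up to 6 in each direction per drug comparison among called members without overlap of groups, a list of members with known roles, and the members at the edge of the level threshold; named introns were up to 10 called in PyMT-M, AT3 and 2208L by mean difference of percent.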

Additional observations from a re-analysis of the deposited data

Results flagged for a closer look

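In PyMT-M groups, 8 values lay far from the other libraries of their group, out of 104 groups of 4 libraries examined, where chance alone flags about 1 in 20. Among H3B-8800 tumors, replicate 3 had 35.62 CPM of Zfp330, where the others had 28.3 to 29.25. Replicate 2 had 20.92 CPM of Zfp687, where the others had 13.84 to 14.59. Replicate 1 held 71.43% in Zfp142 intron 7, where the others held 61.76 to 63.27%, and 57.08% in the pooled member introns, where the others held 48.57 to 49.99%. Among vehicle tumors, replicate 4 had 49.46 CPM of Zfp622 and 11.15 CPM of Zfp142, where the others had 40.84 to 41.78 and 5.635 to 6.016. Vehicle replicate 3 had 15.52 CPM of Zfp512, where the others had 18.07 to 18.46, and held 31.58% in Zfp777 intron 3, where the others held 13.7 to 15.38%.

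The change of gene level differed between PyMT-M and 2208L for Zfp395 (1.825 on the log2 scale, PyMT-M minus 2208L) and Zfp512 (−1.035), by edgeR's quasi-likelihood test with adjusted p of 0.0214 and 0.0494. Of 14 fits without 1 library, 11 kept the call for Zfp395 and 3 that for Zfp512.

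Intron changes between the T11 groups as labelled differed from the mean change of the other 3 models for 13 named introns, all in the negative direction on the log2 scale. The differences were −13.01 and −8.904 for Zfp335 introns 24 and 23, −10.39 for Zfp68 intron 1, and −10.07 and −4.897 for Zfp276 introns 8 and 6. They were −7.798 for Zfp644 intron 6, −6.229 for Zfp598 intron 3, −5.251 for Zfp777 intron 3, −4.798 for Zfp395 intron 4 and −4.619 for Zfp282 intron 7. Zfp638 intron 10 (−4.544), Zfp462 intron 6 (−4.491) and Zfp142 intron 7 (−2.344) had the smallest. Adjusted p ranged up to 0.0184 by edgeR. These introns were named because they rose in the other 3 models or in PyMT-M, and that choice pushes the difference in the negative direction. The p-values therefore cannot show that T11 sets these introns apart. Over all introns tested, 49.6% were called lower and 2.56% higher in the same comparison. The fitted values of introns with groups at 0 depend on the prior count.

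Gene levels of 6 members moved one way in every T11 library labelled H3B-8800 and the other way in every PyMT-M H3B-8800 library. This difference was not tested, and genes other than the named members were not counted. The log2 changes in T11 and PyMT-M were −1.383 and 1.292 for Zfp207, −0.7501 and 0.6681 for Zfp384, and −0.7325 and 0.94 for Zfp513. For Zfp346 they were 1.249 and −1.384, for Zfp598 0.7089 and −0.6768, and for Zfp638 0.3524 and −0.6658, the T11 value of Zfp638 missing the threshold.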

How the results depend on the processing

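Among single-gene values under settings other than leaving out a library, 494 kept direction and side of the threshold, 90 lost the call and 5 changed sign. The 5 changed sign when all overlapping reads were counted: in PyMT-M Zfp598 became 0.25, Zfp367 −0.0804, Zfp608 0.24 and Zfp335 0.46, and Zfp777 became 0.0104 between C57BL/6 and Balb/c models. Of the single-intron values, 363 kept their call and 18 lost it. Without 1 library, 675 gene values and 565 intron values kept their call and 117 and 32 lost it.

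Gene counts were as follows. In AT3, 1 member was called, and 4 by DESeq2, 2 without the T11 libraries and 0 without a filter, by the median over introns, with overlapping reads, in AT3 alone, with the replicate block and without libraries high in other cells' markers. In 2208L, 6 were called, 14 in that model alone and 3 without the high-marker libraries. In T11, 10 were called, 6 without a filter, 0 alone and 3 without the high-marker libraries. Between PyMT-M and 2208L, 2 changes differed, and 5 by DESeq2, 1 without a filter, 1 by the median over introns, 1 without the high-marker libraries and 0 with the block. Between PyMT-M and AT3, 0 differed, and 6 by DESeq2, 1 with RLE size factors, 1 with overlapping reads and 4 without the T11 libraries. With overlapping reads the split was 2 higher and 10 lower in T11 and 2 and 2 in 2208L. The setting without high-marker libraries was chosen after seeing the data. The cause of these shifts was not tested.

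For introns, keeping only those with no annotated exon gave 116 calls in PyMT-M in place of 204, 49 in place of 83 in AT3, 41 in place of 77 in 2208L, 43 in place of 77 in T11, and 114 in place of 189 for T11 against the others; this setting tests fewer introns. A minimum of 20 reads gave 102, 51, 48 and 97 in PyMT-M, AT3, T11 and T11 against the others. AT3 alone gave 54. Without the high-marker libraries 35 were called in 2208L and 39 in T11. limma called 1 intron for PyMT-M minus 2208L.

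The replicate numbers were not shown to pair the libraries: over 12 pairs the correlation of H3B-8800 and vehicle libraries ran between −0.395 and 0.483, and the labels do not say that a number marks a shared animal or day. With the replicate block 21 members were called in PyMT-M, 0 in AT3, 4 in 2208L and 7 in T11, 14 between strains and 22 between PyMT-M and AT3 vehicle tumors. The block gave 196 member introns in PyMT-M, 37 in AT3, 69 in 2208L and 67 in T11.

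Leaving out 1 library at a time, members called ranged over 17 to 23 in PyMT-M, 0 to 2 in AT3, 2 to 5 in 2208L, 4 to 21 in T11, 23 to 35 between strains, 29 to 34 between PyMT-M and AT3, 0 to 3 for PyMT-M minus 2208L and 0 to 6 for PyMT-M minus AT3. Vehicle replicate 1 of T11 gave 21 when left out, and H3B-8800 replicate 2 gave 4. Introns ranged over 187 to 207 in PyMT-M, 19 to 88 in AT3, 41 to 70 in 2208L, 43 to 94 in T11, 0 to 2 for PyMT-M minus AT3 and 164 to 199 for T11 against the others. In AT3 they numbered 19 without H3B-8800 replicate 2, where the lone library is assumed to vary like the other groups, 36 without vehicle replicate 1 and 53 without vehicle replicate 3, and in 2208L 41 without vehicle replicate 1 and 51 without H3B-8800 replicate 1. The difference of the pooled intron share ranged over 16.2 to 22.9 points in PyMT-M, 8.23 to 20.4 in AT3, 8.60 to 11.4 in 2208L and −12.5 to −6.68 in T11.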
